A study of Mus musculus with 4 samples.

Results

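The genes described here are the cyclins that drive the G1 phase of the cell cycle, the inhibitors that hold it back and the retinoblastoma gene on which both act. They are the D-type cyclins *Ccnd1*, *Ccnd2* and *Ccnd3*, the E-type cyclins *Ccne1* and *Ccne2*, the CIP/KIP inhibitor *Cdkn1b*, the INK4 family genes *Cdkn2a*, *Cdkn2b* and *Cdkn2c*, and *Rb1*. They were chosen by exact gene symbol, and all 10 were found among the 53379 genes of the files. RNA came from DKO741, a Terc-/- line of mouse embryonic stem cells derived from E14, in which both alleles of the telomerase RNA gene were replaced by a targeting construct. Cells at population doubling 100 (PD100, before alternative lengthening of telomeres, ALT, was active) were compared with cells at population doubling 800 (PD800, stable ALT survivors), with 2 libraries of each. Both groups therefore lack *Terc*, and both come from the same line, so that time in culture, the ALT state and what was selected on the way cannot be told apart. The labels also speak of passages for the same numbers. The line was maintained on mouse embryonic fibroblasts, but nucleic acids were extracted from feeder-free cultures.

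In G1, cyclin D binds CDK4 or CDK6, cyclin E binds CDK2, and these kinases phosphorylate the retinoblastoma protein, which then releases E2F factors to transcribe genes for S phase. INK4 proteins block CDK4 and CDK6, whereas p27, the product of *Cdkn1b*, and its relatives bind the cyclin-CDK2 complexes. Mouse embryonic stem cells are known for a short G1 phase, high cyclin E-CDK2 activity and little INK4 protein. Much of this control acts on protein amounts, which were not analysed here.

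Start site sequences were printed for 3 of these genes, because *Cdkn1b* and *Ccne1* changed in opposite directions and because *Cdkn2a* has 2 starts whose reads are summed into its count. The RefSeq promoter table (GRCm38.p6) held windows for 6 of the 10 genes, in 9 windows of 300 bases that begin 250 bases before a start. Either strand was searched, with overlaps allowed, for the CCAAT box (CCAAT), the GC box (letters GGGCGG), the E-box (letters CACGTG) and an E2F motif (any of TTTGGCGC, TTTCCCGC, TTTCGCGC and TTTGCCGC). Of all 32851 windows in the table, 33.8% held a CCAAT box, 32.7% a GC box, 6.02% an E-box and 1.86% an E2F match. Capitals mark the matches that lie whole within each stretch, which is written 5′ to 3′ on the gene's strand and overlaps no exon of GENCODE M21.
Cdkn1b, chr6:134920221-134920400, plus strand, the 180 bases before the start: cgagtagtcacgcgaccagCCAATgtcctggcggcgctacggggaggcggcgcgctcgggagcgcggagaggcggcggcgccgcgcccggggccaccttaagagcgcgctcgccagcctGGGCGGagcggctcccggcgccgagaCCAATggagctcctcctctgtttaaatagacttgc
Ccne1, chr7:38107535-38107674, minus strand, ending 45 bases before the start: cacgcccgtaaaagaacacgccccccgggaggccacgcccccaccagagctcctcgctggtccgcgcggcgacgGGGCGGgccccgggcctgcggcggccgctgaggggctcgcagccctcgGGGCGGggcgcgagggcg
Cdkn2a, upstream start, chr4:89294654-89294753, minus strand, ending 35 bases before the start: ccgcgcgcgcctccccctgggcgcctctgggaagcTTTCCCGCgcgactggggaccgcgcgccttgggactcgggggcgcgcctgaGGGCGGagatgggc
Cdkn2a, downstream start, chr4:89282193-89282292, minus strand, the 100 bases before the start: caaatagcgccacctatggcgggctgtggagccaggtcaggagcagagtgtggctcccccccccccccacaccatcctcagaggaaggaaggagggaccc

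The *Cdkn1b* window held 2 CCAAT matches and 1 GC box, and the *Ccne1* window held 4 GC boxes, of which 2 lie whole in the stretch shown. The upstream *Cdkn2a* window, from which the p19ARF transcript starts, held the only E2F match of the 9 windows and 2 GC boxes. The downstream *Cdkn2a* start, which gives the p16INK4a transcript, lies 12427 bases further along within an intron of the longer transcript, and its window held none of the 4 motifs. These matches describe letters only, and no binding was measured.

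Between PD100 and PD800, 2 of the 10 genes rose (*Cdkn1b* and *Ccnd3*), 5 fell (*Ccnd2*, *Ccnd1*, *Ccne1*, *Ccne2* and *Cdkn2b*) and 3 did not pass the test (*Cdkn2a*, *Cdkn2c* and *Rb1*). The test was edgeR's quasi-likelihood test across all 19148 genes that passed the low-count filter, with Benjamini-Hochberg adjustment, and a gene passed at an adjusted p under 0.01. All 10 genes passed the filter. Over all tested genes, 13.1% were higher and 15.4% lower at that threshold. With a fold over 2 also asked for, only *Cdkn1b* was higher and only *Ccnd2* lower, against 6.28% and 8.81% of all tested genes. The median log2 fold change of the 10 genes was -0.41, beside 0.01 over all tested genes. When a library was left out, its group kept 1 library, which was assumed to vary like the other group, so that the remaining pair alone set the spread. The PD100 pair differed by more than the PD800 pair, with a chi-square over degrees of freedom of 41.1 against 6.74. Over all tested genes the higher calls were 1257 and 1417 without PD800 replicate 1 or 2, and 4079 and 3611 without PD100 replicate 1 or 2. The counts of calls in such fits, here and in the lists below, therefore follow which pair gave the spread and are no measure of how stable a change is. Among the 10 genes, 1 (*Cdkn1b*) passed as higher and 1 (*Ccnd2*) as lower without either PD800 library, and all 7 passed without either PD100 library. The 5 genes that lost the call without a PD800 library had adjusted p values between 0.0138 and 0.0872 there, with folds close to those of the full fit. With 2 libraries against 2, a two-sided exact permutation test on any 1 gene has 0.333 as its smallest p, and the tests lean on the spread estimated across all genes.

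**Figure D1:**
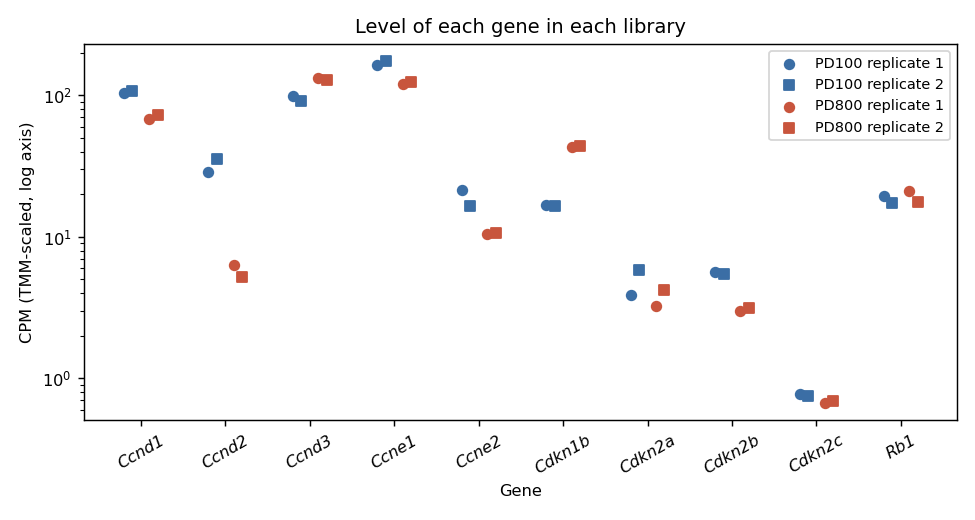
Level of each gene in each of the 4 libraries, as CPM (expected counts scaled to the library's TMM-adjusted total) on a log axis, with circles for replicate 1 and squares for replicate 2. *Ccnd2* lay between 28.8 and 35.7 CPM at PD100 and between 5.20 and 6.32 CPM at PD800. The PD800 points stand above the PD100 points most clearly for *Cdkn1b*, and by less for *Ccnd3* (133 and 129 against 98.9 and 91.1 CPM).

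The files gave total expected counts of 32454121.09 to 38492149 per library, where an expected count estimates how many read pairs a gene gave. *Terc*, the targeted gene, reached a count of 1 in PD100 replicate 1 and stayed at 0 elsewhere, which is too low for any comparison of the groups. Counts of mitochondrial and small RNAs made up 22.0% to 23.4% of the PD100 libraries and 27.7% to 28.3% of the PD800 libraries. Markers of other cell types moved with the same contrast. Of 10 primitive endoderm markers all 10 fell, with a summed level of 288 and 314 TPM at PD100 and of 16.1 and 16.5 TPM at PD800. Most of that sum came from *Col4a1*, *Col4a2* and *Lama1*, and the transcription factor *Gata6* went from 4.06 and 3.14 TPM to 0.25 and 0.23 TPM. Of 7 trophoblast markers tested, 4 fell (*Cdx2*, *Krt7*, *Krt8* and *Krt18*) and 1, *Eomes*, rose. Their sum, 382 and 378 TPM at PD100 and 22.2 and 21.2 TPM at PD800, was at PD100 almost wholly *Krt8* (184 and 175 TPM) and *Krt18* (186 and 190.38 TPM), keratins of simple epithelia in general. At PD800 it was mostly *Krt8* (7.49 and 7.43 TPM), *Krt18* (4.88 and 4.98 TPM) and *Tfap2c* (7.30 and 6.87 TPM), so that it is no level of trophoblast markers. *Cdx2*, *Elf5* and *Gata3* lay between 0.14 and 0.51 TPM at PD100, and *Tfap2c* did not pass the test (log2 fold change 0.30). Fibroblast markers summed to 14.1 and 14.4 TPM at PD100 and to 4.16 and 4.23 TPM at PD800, with 5 of 9 tested lower. Embryonic stem cell markers, which check the labelled cell type, summed to 1523 and 1825 TPM at PD100 and to 2221 and 2265 TPM at PD800. The largest part of each sum was *Dppa5a* (682 and 1068, then 1051 and 1156 TPM), which did not pass (edgeR adjusted p = 0.15). *Pou5f1*, *Sox2* and *Zfp42* did not pass either. The other 6 of the 10 were higher (*Nanog*, *Esrrb*, *Klf4*, *Fgf4*, *Tdgf1* and *Utf1*). No marker of these lists was at 0 in all 4 libraries. The part of such cells in the changes below was not tested, and in bulk RNA fewer cells of a type and less RNA per cell cannot be told apart.

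The D-type cyclins moved in different directions. *Ccnd2* fell most of the 10 genes, *Ccnd1* fell less and *Ccnd3* rose. *Ccnd2* (ENSMUSG00000000184.12, chromosome 6 from 127125162 to 127152193 in GRCm38, minus strand) encodes cyclin D2. Its expected counts were 1163.78 and 1191 at PD100 and 227 and 167.19 at PD800, or 28.8 and 35.7 CPM against 6.32 and 5.20 CPM. Every PD800 library lay far below either PD100 library. The log2 fold change was -2.48 (standard error 0.15, 95% interval -2.86 to -2.11, edgeR adjusted p = 0.000135), a level 5.59-fold lower. Leaving out any of the 4 libraries moved it no further than -2.63 and -2.34. On log2(TPM + 1) it was -1.84 (limma adjusted p = 0.0059). Over all the alternative settings tried it ran from -2.72 to -1.71.

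*Ccnd1* (ENSMUSG00000070348.5, chromosome 7 from 144929931 to 144939925, minus strand) encodes cyclin D1, the D-type cyclin best known as a target of growth factor signalling. It had expected counts of 4182.55 and 3567.43 at PD100 and of 2462.6 and 2323.22 at PD800. On the CPM scale these were 104 and 107 against 68.5 and 72.3, groups that do not overlap. With 2 libraries of each such a separation is common and adds little. In CPM it held for 14131 of the 19148 tested genes and for 8 of the 10 genes described here. The log2 fold change of *Ccnd1* was -0.58 (standard error 0.07, 95% interval -0.76 to -0.40, edgeR adjusted p = 0.00167). Without PD800 replicate 1 it was -0.53 (edgeR adjusted p = 0.0431) and without PD800 replicate 2 it was -0.61 (edgeR adjusted p = 0.0223). On the opposite strand *LTO1* shares 1100 exon bases with *Ccnd1*, and its counts went the other way, from 299 and 315 to 466 and 433. The strand setting of the counting is not given in the sources used here, so reads in the shared bases cannot be assigned with certainty.

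*Ccnd3* (ENSMUSG00000034165.16, chromosome 17 from 47505051 to 47599691, plus strand) encodes cyclin D3. Expected counts were 3993.34 and 3039.92 at PD100 and 4782.27 and 4155.61 at PD800, or 98.9 and 91.1 CPM against 133 and 129 CPM. Its PD800 libraries lay above its PD100 libraries, close to each other. The log2 fold change was 0.47 (standard error 0.08, 95% interval 0.27 to 0.66, edgeR adjusted p = 0.00473), and on log2(TPM + 1) it was 0.23 (limma adjusted p = 0.146). Leaving out PD800 replicate 1 gave 0.45 (edgeR adjusted p = 0.0716) and leaving out PD800 replicate 2 gave 0.49 (edgeR adjusted p = 0.0468). A pseudogene copy, *Ccnd3-ps*, matches it at 96.3% over 881 bases but held only 3 to 8 counts per library. *Bysl*, on the opposite strand, shares 361 exon bases and had 1629 to 2141 counts.

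Levels of different genes can be set side by side only per length, for which the deposited TPM values were used. The 3 D-type cyclins summed to 68.0 ± 2.37 TPM (SD, n = 2) at PD100 and to 60.8 ± 0.834 TPM at PD800. Within that sum the share of *Ccnd3* went from 57.6% ± 3.68 to 75.5% ± 0.976, the share of *Ccnd1* from 34.8% ± 0.621 to 23.4% ± 1.03, and the share of *Ccnd2* from 7.61% ± 3.06 to 1.10% ± 0.0547. In each case the change exceeded the range of the replicates. The ratio of *Ccnd3* to *Ccnd1* TPM was 1.75 and 1.56 at PD100 against 3.35 and 3.09 at PD800.

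**Figure D2:**
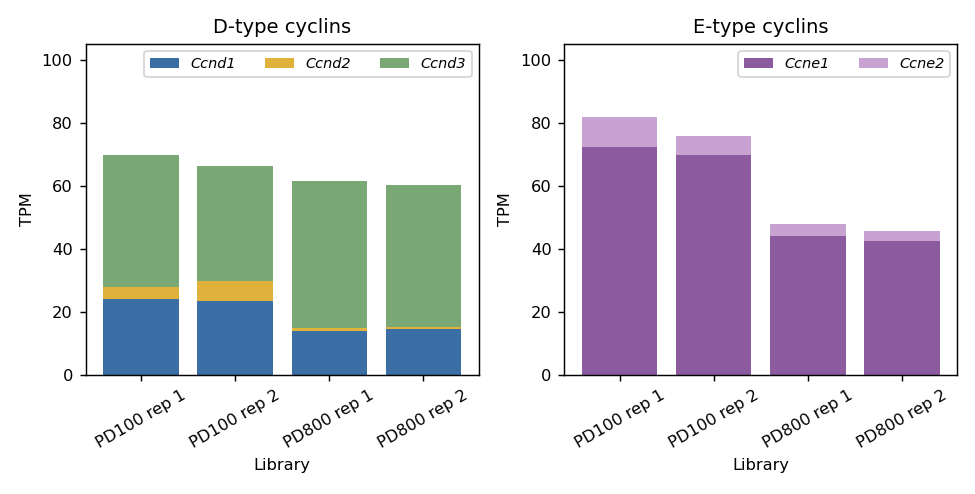
TPM of the D-type cyclins (left) and E-type cyclins (right) in each library, stacked by gene, with "rep" for replicate. The D-type bars keep nearly the same height, between 60.2 and 69.7 TPM, while *Ccnd2* shrinks and *Ccnd3* widens, and the E-type bars go from 81.8 and 75.9 TPM at PD100 to 47.9 and 45.6 TPM at PD800.

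Both E-type cyclins fell. *Ccne1* (ENSMUSG00000002068.16, chromosome 7 from 38097984 to 38107534, minus strand) encodes cyclin E1, the activating partner of CDK2 at the entry to S phase. Its expected counts were 6577 and 5837 at PD100 and 4338 and 4003 at PD800. In CPM the PD100 libraries stood at 163 and 175 and the PD800 libraries at 121 and 125, with no overlap. Its log2 fold change was -0.46 (standard error 0.08, 95% interval -0.65 to -0.27, edgeR adjusted p = 0.00446), and it was -0.43 (edgeR adjusted p = 0.0872) without PD800 replicate 1 and -0.48 (edgeR adjusted p = 0.0553) without PD800 replicate 2.

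*Ccne2* (ENSMUSG00000028212.16, chromosome 4 from 11191351 to 11204779, plus strand) encodes cyclin E2 and was far less abundant. It had 858.59 and 547.7 expected counts at PD100 against 379.45 and 342.87 at PD800. The PD100 replicates differed from each other, at 21.3 and 16.4 CPM, but both exceeded the PD800 values of 10.5 and 10.7 CPM. The fitted difference was -0.83 on the log2 scale (standard error 0.14, 95% interval -1.17 to -0.49, edgeR adjusted p = 0.00471), and on log2(TPM + 1) it was -0.94 (limma adjusted p = 0.0234). In edgeR it was -0.63 without PD100 replicate 1 and -1.03 without PD100 replicate 2, and it stayed at -0.81 (edgeR adjusted p = 0.0175) without PD800 replicate 1 and at -0.83 (edgeR adjusted p = 0.0138) without PD800 replicate 2. *Ints8* shares 609 exon bases with it on the opposite strand, at 1534 to 1947 counts per library. In TPM the E-type sum went from 78.8 ± 4.16 (SD, n = 2) to 46.8 ± 1.58. *Ccne1* made up 90.2% ± 2.38 of it at PD100 and 92.5% ± 0.351 at PD800, a difference within the PD100 spread. The fall was larger in TPM than in counts: *Ccne1* changed by -0.70 on log2(TPM + 1) (limma adjusted p = 0.00499), against -0.46 by edgeR. All tested genes had a median of -0.12 in that limma fit.

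*Cdkn1b* (ENSMUSG00000003031.14, chromosome 6 from 134920401 to 134925513, plus strand) rose more than any other of the 10 genes. Its expected counts were 680 and 550 at PD100 and 1549 and 1412 at PD800. At 16.8 and 16.5 CPM the PD100 replicates were nearly equal, as were the PD800 replicates at 43.1 and 43.9 CPM, so that the groups stood well apart. The log2 fold change was 1.38 (standard error 0.08, 95% interval 1.20 to 1.57, edgeR adjusted p = 9.78e-05), a level 2.61-fold higher. Any left-out library moved it only within 1.35 to 1.41. On log2(TPM + 1) it was 1.09 (limma adjusted p = 0.0040). Over all the alternative settings tried it ran from 1.02 to 1.41. No other gene of the annotation overlaps it.

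The other CIP/KIP genes went the opposite way. *Cdkn1a*, which encodes p21, a well-known target of p53, had 24.6 and 26.5 CPM at PD100 and 9.51 and 9.12 CPM at PD800 (log2 fold change -1.45, standard error 0.09, edgeR adjusted p = 0.000145). *Cdkn1c*, which encodes p57 and is imprinted, had 35.2 and 37.6 CPM at PD100 and 8.15 and 9.59 CPM at PD800 (log2 fold change -2.04, standard error 0.11, edgeR adjusted p = 9.22e-05). In TPM the ratio of *Cdkn1b* to *Cdkn1a* was 0.404 and 0.341 at PD100 and 2.85 and 3.06 at PD800, so that the order of the pair turned over. The TPM ratio of *Cdkn1b* to *Ccne1* was 0.0664 and 0.0584 at PD100 and 0.239 and 0.248 at PD800.

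Among these INK4 family genes only *Cdkn2b* passed the test. *Cdkn2b* (ENSMUSG00000073802.4, chromosome 4 from 89306299 to 89311039, minus strand) encodes p15INK4b. It had 228 and 183 expected counts at PD100 and 108 and 101 at PD800, or 5.65 and 5.48 CPM against 3.0 and 3.14 CPM. The groups do not overlap and the replicates lie close together. This gave a log2 fold change of -0.86 (standard error 0.14, 95% interval -1.20 to -0.51, edgeR adjusted p = 0.00428), and it was -0.82 (edgeR adjusted p = 0.0419) without PD800 replicate 1 and -0.88 (edgeR adjusted p = 0.0285) without PD800 replicate 2.

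*Cdkn2a* (ENSMUSG00000044303.6, chromosome 4 from 89274471 to 89294653, minus strand) sums the transcripts for p16INK4a and p19ARF, which start at the 2 sites shown above and were not separated. Counts were 157 and 193 at PD100 and 117 and 136 at PD800. PD100 replicate 1, at 3.89 CPM, lay below PD800 replicate 2, at 4.23 CPM, so the groups overlap in CPM. PD100 replicate 2 stood at 5.78 CPM and PD800 replicate 1 at 3.26 CPM. The log2 fold change was -0.37 with a 95% interval of -0.96 to 0.23 (edgeR adjusted p = 0.268), an interval that holds both a fall and no change. Left-out libraries moved it from -0.63 to -0.083. In TPM the groups did not overlap, at 4.23 and 5.50 TPM at PD100 and 2.88 and 3.54 TPM at PD800. On log2(TPM + 1) the difference was -0.47 (limma adjusted p = 0.0795).

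*Cdkn2c* (ENSMUSG00000028551.14, chromosome 4 from 109660876 to 109667189, minus strand) encodes p18INK4c and was the lowest of the 10 genes, with 31 and 25 counts at PD100 and 24 and 22 at PD800. Its levels were 0.768 and 0.749 CPM against 0.668 and 0.685 CPM, groups that do not overlap although the gene did not pass. The log2 fold change was -0.17 (95% interval -0.81 to 0.48, edgeR adjusted p = 0.648). *Cdkn2d*, the gene for p19INK4d, had 5.85 and 7.16 CPM at PD100 and 9.46 and 11.1 CPM at PD800 (log2 fold change 0.67, 95% interval 0.30 to 1.03, edgeR adjusted p = 0.0131), which missed the threshold.

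*Rb1* (ENSMUSG00000022105.6, chromosome 14 from 73183673 to 73325822, minus strand) did not pass the test. Counts of 785.05 and 582.63 at PD100 and of 752.29 and 563.49 at PD800 gave 19.4 and 17.5 CPM against 20.9 and 17.5 CPM, groups that overlap. The log2 fold change was 0.06 (95% interval -0.23 to 0.35, edgeR adjusted p = 0.716), and it turned to -0.51 on log2(TPM + 1) (limma adjusted p = 0.0894). In TPM the PD100 libraries held 6.51 and 5.28 and the PD800 libraries 4.54 and 3.20. The effective length that RSEM assigned, an average over the isoforms it weighs, went from 2318 and 2332 bases at PD100 to 2966 and 3337 bases at PD800. With 1 mean length per gene in every library, a setting chosen after the data were seen, the TPM difference was -0.13 (limma adjusted p = 0.67). For *Ccnd2* the effective length differed between the PD100 replicates themselves, at 5905 and 3881 bases, and its values there were 3.79 and 6.48 TPM beside 28.8 and 35.7 CPM, so the replicates also differed once scaled for depth. *Rcbtb2* and *Lpar6* share 488 and 408 exon bases with *Rb1* on the opposite strand, and their counts fell from 1240 and 1011 to 705 and 592 and from 1093 and 701 to 410 and 363.

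**Figure D3:**
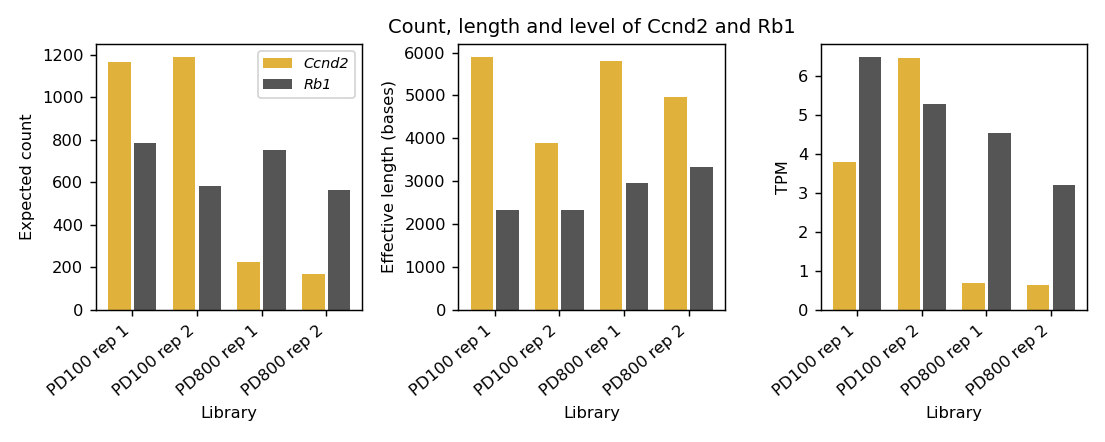
Expected count (left), effective length in bases (middle) and TPM (right) of *Ccnd2* and *Rb1* in each library, with "rep" for replicate. *Rb1* has similar counts in the 2 groups but a longer effective length and a lower TPM at PD800, whereas *Ccnd2* is lower at PD800 in count and in TPM alike.

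Ordered by TPM, *Ccne1* was the highest of the 10 genes in both PD100 libraries (72.3 and 69.7 TPM), ahead of *Ccnd3* (41.9 and 36.5 TPM). At PD800 *Ccnd3* was first (46.8 and 45.0 TPM) and *Ccne1* second (44.2 and 42.3 TPM), though the nearest values of the pair were closer than the replicates of either. *Ccnd1* took rank 3 in every library, at 24.0 and 23.4 TPM and then 13.9 and 14.6 TPM, and *Cdkn2c* came last, at 0.18 to 0.32 TPM. In between, *Ccne2*, *Ccnd2*, *Rb1*, *Cdkn1b* and *Cdkn2a* lay between 3.79 and 9.42 TPM at PD100, with ranks that changed between the replicates. *Cdkn1b* moved from ranks 6 and 8 at PD100 to rank 4 in both PD800 libraries, at 10.6 and 10.5 TPM, and *Ccnd2* moved from ranks 8 and 4 to rank 9. Over all tested genes the median log2 difference was -0.12 by limma on log2(TPM + 1), beside 0.01 by edgeR on counts.

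The partners of these genes were taken from lists of cell cycle genes. The counts in each list stand beside 13.1% of all tested genes higher and 15.4% lower. Of 22 other G1 regulators, 1 rose, 5 fell and 16 did not pass, with a median log2 fold change of 0.02. The kinase *Cdk4* had 239 and 249 CPM at PD100 and 149 and 154 CPM at PD800 (log2 fold change -0.69, standard error 0.07, edgeR adjusted p = 0.000888). *Cdk6* had 48.5 and 49.2 against 38.0 and 36.5 CPM (log2 fold change -0.39, standard error 0.07, edgeR adjusted p = 0.0074). Both partners of the D-type cyclins thus fell. *Cdk2*, the partner of cyclin E, had 57.7 CPM in both PD100 libraries and 69.0 and 68.2 CPM at PD800 (log2 fold change 0.25, edgeR adjusted p = 0.0303) and missed the threshold. The pocket proteins related to *Rb1* did not pass either, with log2 fold changes of 0.29 for *Rbl1* (95% interval 0.02 to 0.56) and -0.14 for *Rbl2* (95% interval -0.41 to 0.14). Of the E2F dimerisation partners *Tfdp2* rose (log2 fold change 1.09, edgeR adjusted p = 0.000386) and *Tfdp1* fell (log2 fold change -0.72, edgeR adjusted p = 0.000645). The 5 lower became 2 without PD800 replicate 1 or without PD800 replicate 2. The 1 higher became 4 without PD100 replicate 1, 3 without PD100 replicate 2, and 0 for limma on log2(TPM + 1).

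Genes that act in the turnover of G1 cyclins or p27 formed another list, of which 14 of 15 symbols were found in the files and tested. The symbol not found was *Skp1*, listed beside *Skp1a*, which was found and tested. *Fbxw7*, the ubiquitin ligase subunit that recognises cyclin E, rose from 39.2 and 43.1 CPM to 60.9 and 65.1 CPM (log2 fold change 0.61, edgeR adjusted p = 0.00244). *Fbxo4* and *Fbxo31*, F-box genes linked to cyclin D1, fell, with log2 fold changes of -1.32 and -0.61 (edgeR adjusted p = 0.00335 and 0.00875). *Skp2*, the subunit that recognises p27, had 61.5 and 52.4 CPM at PD100 and 57.5 and 55.3 CPM at PD800, and the groups overlap. In all 1 of the 14 rose, 2 fell and 11 did not pass, at a median of 0.08 on the log2 scale. On log2(TPM + 1) limma gave 0 higher. With the spread from the PD100 pair alone (without PD800 replicate 1 or 2) 0 passed by edgeR, and with it from the PD800 pair alone (without PD100 replicate 1 or 2) 3 passed as higher and 3 as lower.

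Genes downstream of E2F, which act in DNA replication, gave 3 higher, 2 lower and 15 not passing of 20, with a median log2 fold change of -0.07. *Mcm7*, of the replicative helicase, and *Tyms*, thymidylate synthase, rose by 0.57 and 0.46 on the log2 scale (edgeR adjusted p = 0.00292 and 0.00453). *Cdt1*, which licenses origins, and *Mcm5*, of the same helicase as *Mcm7*, changed by -0.89 and -0.45 (edgeR adjusted p = 0.000695 and 0.00483). *Mcm2*, *Mcm3*, *Mcm4* and *Mcm6*, of the same helicase, did not pass, with log2 fold changes of 0.08, -0.13, -0.14 and -0.06. Of its subunits only *Mcm7* and *Mcm5* passed, in opposite directions. Leaving out PD800 replicate 1, or PD800 replicate 2, left 0 higher and 1 lower by edgeR. Leaving out PD100 replicate 1 gave 4 higher and 4 lower, leaving out PD100 replicate 2 gave 4 higher and 3 lower, and limma on log2(TPM + 1) also gave 0 higher.

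Of 20 genes of G2 and M phase, 9 rose and 11 did not pass, with a median log2 fold change of 0.41. The proliferation marker *Mki67* went from 412 and 359 CPM to 831 and 804 CPM (log2 fold change 1.09, edgeR adjusted p = 0.000491), and the mitotic kinase *Aurka* from 85.1 and 94.6 CPM to 214 and 222 CPM (log2 fold change 1.28, edgeR adjusted p = 0.000172). *Ube2c* and *Cenpe* rose by 0.47 and 0.48 (edgeR adjusted p = 0.0065 and 0.00557). *Cdk1*, the mitotic partner of cyclin B, had a log2 fold change of -0.26 (edgeR adjusted p = 0.0378) and missed the threshold. With the spread from the PD100 pair alone (without PD800 replicate 1 or 2) 4 of the 20 passed as higher, and with it from the PD800 pair alone (without PD100 replicate 1 or 2) 13 did, with 1 lower without PD100 replicate 2. On log2(TPM + 1) limma gave 1 higher. The shares of cells in each phase of the cycle were not measured in these libraries.

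**Figure D4:**
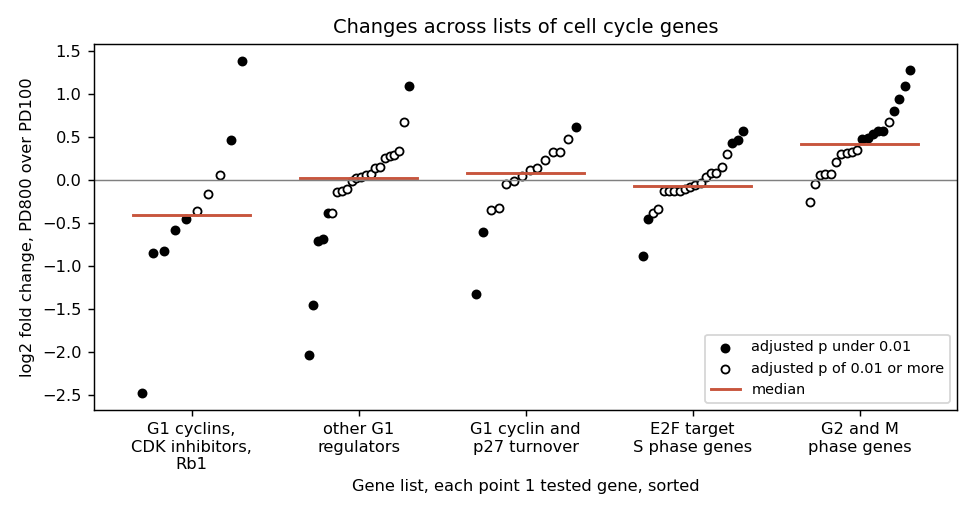
Log2 fold change (PD800 over PD100, expected counts, edgeR) of each tested gene in 5 lists of cell cycle genes, sorted within each list, with filled points for an adjusted p under 0.01 and a red line at the median. The G1 cyclins, CDK inhibitors and *Rb1* have a median of -0.41 and the G2 and M phase genes one of 0.41, with the other lists near 0.

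The RNA of the genes around each of the 10 was also taken, as a description of its chromosome region. The 40 tested genes nearest to *Cdkn1b* had a median log2 fold change of 0.83, with 20 higher and 2 lower, so the rise of *Cdkn1b* exceeded that of its neighbourhood by 0.55. *Ccnd2* lies on the same chromosome 6, and its 40 neighbours had a median of 0.71, with 17 higher and 1 lower. *Ccnd2* thus moved against its surroundings, at 3.20 below their median. *Rb1* had neighbours with a median of -0.47, of which 0 were higher and 17 lower by edgeR, and stood 0.53 above them. For the other 7 genes the medians lay between 0.02 and 0.23. They depended on how many neighbours were taken: with 20, the median was -0.05 for *Cdkn2c*, 0.068 for *Cdkn2a* and *Cdkn2b* and 0.29 for *Ccne2*. With 20 or 80 neighbours the medians were 0.85 and 0.67 for *Ccnd2*, 0.79 and 0.74 for *Cdkn1b*, and -0.34 and -0.57 for *Rb1*. *Ccnd1* lies 0.389 Mb from the last annotated base of chromosome 7, and the 104 other tested genes in the last 5 Mb there had a median of 0.27, with 23 higher and 16 lower. On chromosome 6 the 53 tested genes in the last 5 Mb, which hold neither *Cdkn1b* nor *Ccnd2*, had a median of 0.90, with 27 higher and 3 lower. By genome sequencing the paper reports copy number changes at the long-arm ends of chromosomes in PD800 cells, compared with PD100. DNA copy number was not analysed here, and the part of these regions in the changes of *Cdkn1b*, *Ccnd2* or *Rb1* was not tested.

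**Figure D5:**
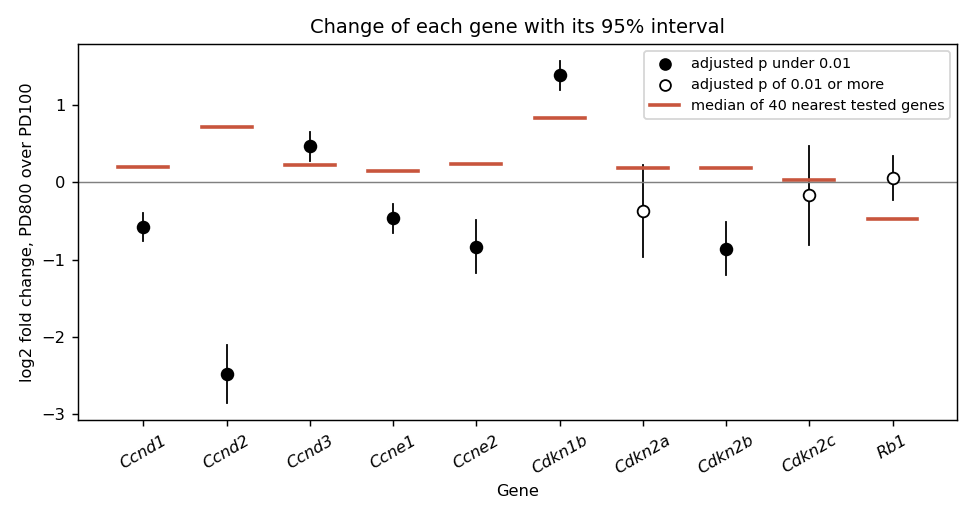
Log2 fold change (PD800 over PD100) of each gene from edgeR with its 95% interval, filled where the adjusted p is under 0.01, and in red the median of the 40 tested genes nearest on the chromosome. *Ccnd2* lies 3.20 below its neighbours and *Cdkn1b* lies 0.55 above neighbours that are themselves high.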

How the data were processed

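Bulk RNA of Terc-/- mouse embryonic stem cells was sequenced as biological duplicates at PD100 and PD800 (2 libraries each, paired-end reads). The authors aligned reads to mm10 with STAR 2.5.3a and deposited RSEM 1.3.0 expected counts, which are not scaled for depth, TPM values, which are scaled for length and to 1 total, and effective lengths. The annotation release and strand setting are not given in the sources used here. The labels name total RNA, the study mRNA. Genes were matched to GENCODE M21 for 53274 of 53379 identifiers.

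Expected counts were rounded and tested in edgeR 4.0.16 under R 4.3.3 (genes kept by filterByExpr at 10 counts, TMM factors of 0.960 to 1.05, quasi-likelihood test, Benjamini-Hochberg over 19148 genes). The procedure was also run on simulated counts with the same spread for every gene and both groups. These data differ from that setting, so the simulation cannot show how the test behaves with unequal spreads. The standard error is the log2 fold change over the square root of F. Replicates differed by more than sampling noise (chi-square over degrees of freedom 41.1 at PD100 and 6.74 at PD800). The 10 genes and the other lists were chosen with earlier results of these data known. From each list of partner, turnover, S phase and M phase genes, the 2 highest and 2 lowest passing genes averaging 1 CPM or more were named, with the CDK partners, other inhibitors and pocket proteins whatever their values. *Skp2*, *Cdk1*, *Tfdp1*, the further helicase subunits and the single cell type markers were chosen after their values were seen. Copies were sought with blastn 2.17.0 (at least 90% identity over 300 bases). Alternatives were DESeq2 1.42.0, DESeq2 size factors, upper-quartile factors, other count filters, the replicate number as a block, limma 3.58.1 on log2(TPM + 1) and log2(TPM + 0.1), other thresholds and each library left out.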

Additional observations from a re-analysis of the deposited data

How the results depend on the processing

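Of 140 values of the 10 log2 fold changes under alternatives, 108 kept their direction and side of the threshold, 26 kept only the direction and 6, all of *Rb1*, reversed. These were -0.51 for limma on log2(TPM + 1) with or without the filter, -0.61 on log2(TPM + 0.1) and -0.13 with 1 length per gene, and with each library left out *Rb1* ran from -0.069 to 0.19. The 2 genes higher became 1 in every limma fit on TPM with the filter, 0 without it, and 1 with a fold over 2 asked for. The 5 lower became 0 for limma without the filter, 1 with 1 length per gene and 1 with a fold over 2. Left-out libraries gave 1 to 2 higher and 1 to 5 lower, the lowest without either PD800 library, where the PD100 pair alone gave the spread. Over all tested genes, higher calls (2513 by edgeR) were 3991 with no count filter, 4224 at an adjusted p under 0.05, 1202 with a fold over 2, 712 and 706 for limma on log2(TPM + 1) and log2(TPM + 0.1), 647 with 1 length per gene, 0 without the filter, and 1257 to 4079 with a library left out. Lower calls (2943) were 4515 at an adjusted p under 0.05, 1686 with a fold over 2, 1765 with 1 length per gene, 0 for limma without the filter, and 1567 to 4223 with a library left out. Higher genes were 46.1% of the calls by edgeR and 23.4%, 22.7% and 26.8% in the 3 filtered limma fits. The cause was not tested. Same-numbered libraries share only a number (correlation of deviations 0.265, 2 pairs). With that number as a replicate block all 7 calls among the 10 genes were kept and higher calls over all genes were 3854. Among the other lists, the block gave 14 of 20 G2 and M phase genes higher (9 without it), 4 of 14 turnover genes (1) and 2 of 22 other G1 regulators (1), and 4 of 20 E2F targets lower (2).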
